A study of Mus musculus with 120 samples.

Results

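The comparison described here is that of exercised with non-exercised ANT1 mice in soleus muscle, 12 libraries of the 120 samples in the series (60 of soleus). The exercised arm holds mice A13, A17, A30, A43, A76 and A81, and the non-exercised arm mice A4, A18, A58, A75, A82 and A88, as chosen by strain, tissue and treatment in the labels. All 12 mice were Slc25a4-/- on the C57BL/6EiJ background, which carries an intact Nnt gene. Exercised mice ran every 2 days for 45 min at 50% of their maximal capacity, from 16 weeks of age and for 8 weeks, whereas non-exercised mice were handled only. Both arms took the running tests at the start and the end, and tissue was taken 6 days after the last training session. Exercised mice carry a label of response to training, responder for A13, A43 and A81 and non-responder for A17, A30 and A76. The control B6 mice of the series were not analysed here, so no value below compares ANT1 mice with mice that have the gene.

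Slc25a4 encodes ANT1, the adenine nucleotide translocator of heart and skeletal muscle, which passes ADP into the mitochondrial matrix and ATP out of it. Its loss in mice is known for a mitochondrial myopathy with an abundance of mitochondria in muscle. The soleus is a postural muscle of slow type I fibres, which use the myosin Myh7, and oxidative type IIa fibres, which use Myh2. Type IIx and IIb fibres, with Myh1 and Myh4, are rarer there. Endurance training is known to act on mitochondrial gene expression through the coactivator Ppargc1a, on capillaries, and on fibre type.

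No gene passed the test for training, and the promoters of 2 genes are shown because these genes lead the differences upwards. Fasn had the smallest p of all genes with a higher estimate in exercised mice. Dkk2 was the one gene among the 12 named for the smallest p in that direction whose arms did not overlap. The RefSeq promoters, build GRCm38.p6, are given 5′ to 3′ for the 250 bases before the transcription start, on the strand of the gene, which is minus for Fasn (chr11:120824548-120824797) and plus for Dkk2 (chr3:132085042-132085291). Capitals mark the motif TATAAA.
Fasn: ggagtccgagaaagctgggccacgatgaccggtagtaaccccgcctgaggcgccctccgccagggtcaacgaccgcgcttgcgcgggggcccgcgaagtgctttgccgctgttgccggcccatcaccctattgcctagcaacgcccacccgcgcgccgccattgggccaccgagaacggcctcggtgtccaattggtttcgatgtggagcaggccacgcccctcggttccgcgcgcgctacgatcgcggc
Dkk2: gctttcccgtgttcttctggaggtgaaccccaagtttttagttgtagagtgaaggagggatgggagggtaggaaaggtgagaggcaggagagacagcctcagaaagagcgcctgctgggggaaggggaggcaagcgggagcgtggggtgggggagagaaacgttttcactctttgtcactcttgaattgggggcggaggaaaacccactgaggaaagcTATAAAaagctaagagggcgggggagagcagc
The windows were searched on both strands for 5 motifs, and their shares among the 32851 windows of the table were as follows. The oestrogen-related receptor site AAGGTCA was in 4.08% of windows. The cyclic AMP response element core TGACG was in 17.8%, and the MEF2 core TATTTA was in 12.7%. The E-box CACGTG was in 6.02%, and the TATA box TATAAA was in 12.4%. The Dkk2 window held 1 TATAAA, and the Fasn window held no match. Gadd45gip1, which had the smallest p of all, is not shown by sequence. By the GENCODE annotation of build mm10 it lies on chromosome 8, at 84831522 to 84835482 on the plus strand.

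The label of the strain was checked first. Slc25a4 ranged from 4.96 to 14.6 CPM (counts scaled to library size) in exercised mice (median 11.7) and from 10.96 to 22.1 CPM in non-exercised ones (median 13.9), against 2170 to 4021 CPM in the 36 soleus libraries of the other strains. The raw counts behind these levels were 64 to 238 per library. All 12 libraries thus carried the label's loss of this mRNA. Within the small remainder, the exercised arm was lower by 0.44 log2 units ± 0.16 (SE), an unadjusted p of 0.00936 and an adjusted p of 0.9999 (edgeR, quasi-likelihood F test), which did not pass.

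Totals ran from 13545289 to 18584486 counts per library and did not differ between the arms beyond their spread (exact permutation p = 0.442, two-sided). The share of counts from mitochondrial DNA was 37.9% ± 3.96 (SD, n = 6) in exercised and 39.0% ± 4.34 in non-exercised mice, a difference of -1.13 percentage points (exact permutation p = 0.587). In 1 mouse of each arm the share was far higher, 45.1% in A81 and 47.6% in A82, while the other 10 lay between 33.99% and 39.2%. These 2 libraries were also the least like the rest, with a median Spearman correlation of 0.964 (A81) and 0.955 (A82) to the other 11, where no other library was under 0.972. Results were repeated without both, and without A30, whose fast myosin level stood apart.

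Training left no gene past the threshold in ANT1 soleus. Of 13935 genes tested, 0 had an adjusted p under 0.05 with edgeR (0%), and 350 had an unadjusted p under 0.05 (2.51%), 190 of them higher in exercised mice (1.36%) and 160 lower (1.15%). The 95% interval of the difference lay within 2-fold either way for 87.3% of genes tested and within 1.5-fold for 68.2%, with a median SE of 0.14 log2 units. Among the 3411 genes whose mean log2 CPM reached 5, 94.7% had an interval within 1.5-fold. For the 2771 genes under a log2 CPM of 1 the share was 4.62%, and 48.3% had an interval within 2-fold. DESeq2 called 1 gene, Gadd45gip1, and limma voom called 0 (319 at unadjusted p under 0.05). Without A30, edgeR called 0 of 14055, with 307 at unadjusted p under 0.05 (2.18%; higher for 1.02% of genes and lower for 1.16%). Without A81 and A82 it called 1, Gadd45gip1, with 395 at unadjusted p under 0.05.

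**Figure D1:**
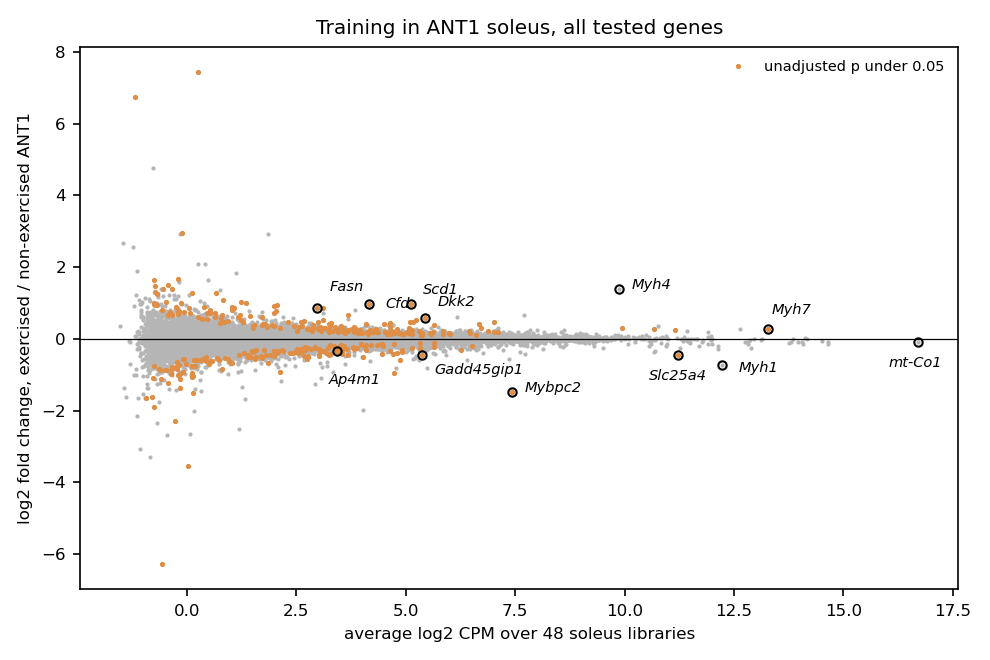
Log2 fold change of exercised over non-exercised ANT1 soleus against the average log2 CPM over all 48 soleus libraries, a point per tested gene; orange points have an unadjusted p under 0.05 and circles mark named genes. Points spread widely at low levels and narrowly at high ones, and none passed an adjusted p of 0.05.

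Only 8 of 13935 genes had arms that did not overlap (0.0574%), 4 higher in exercised mice (Dkk2, Lep, Cog5 and Nudt1) and 4 lower (Ap4m1, Ptx4, Ube2cbp and Lrrc29). For arms of this size, the smallest p of an exact two-sided permutation test is 0.002165 (924 arrangements). That is also the chance that a gene with no difference has arms that do not overlap. The share of genes seen was below this chance, so a lack of overlap alone did not mark these genes out. Dkk2 encodes a secreted modulator of Wnt signalling. It lay between 36.1 and 55.1 CPM in exercised mice (median 47.9) and between 23.6 and 35.0 CPM in non-exercised mice (median 32.2). The lowest exercised library was just above the highest non-exercised one, and the fitted difference was 0.57 log2 units ± 0.19 (unadjusted p = 0.00496, edgeR adjusted p = 0.9999). Ap4m1, a subunit of the AP-4 trafficking complex, showed the reverse order, with 9.09 to 12.3 CPM in exercised mice (median 10.95) and 12.6 to 16.6 CPM in non-exercised ones (median 13). Its difference was -0.34 ± 0.12 (unadjusted p = 0.00537) and did not pass. Cog5, Nudt1, Ptx4, Ube2cbp and Lrrc29 are named because they belong to this short list, and were chosen after their values were seen.

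Gadd45gip1 encodes a protein of the large subunit of the mitochondrial ribosome, which translates the mRNAs of mitochondrial DNA. Its level was 24.6 to 33.2 CPM in exercised mice (median 28.2) and 32.9 to 54.6 CPM in non-exercised mice (median 34.5). The arms touched near 33 CPM, and the 2 highest of all were non-exercised A18 (54.6) and A88 (49.3), with the other 4 non-exercised mice between 32.9 and 34.6. The difference was -0.46 ± 0.095 log2 units (95% interval -0.65 to -0.27), with an edgeR adjusted p of 0.242. With DESeq2 the adjusted p was 0.0279, and without A81 and A82 edgeR's was 0.0336 at -0.55. The smallest adjusted p of any gene was 0.467 with limma voom and 0.9994 with edgeR on ANT1 libraries alone. Without A18 and A88 the difference was -0.22 and the adjusted p 0.991. Gadd45gip1 lies on the same chromosome as Slc25a4, and whether the genotype around Slc25a4 differed between these mice was not tested.

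**Figure D2:**
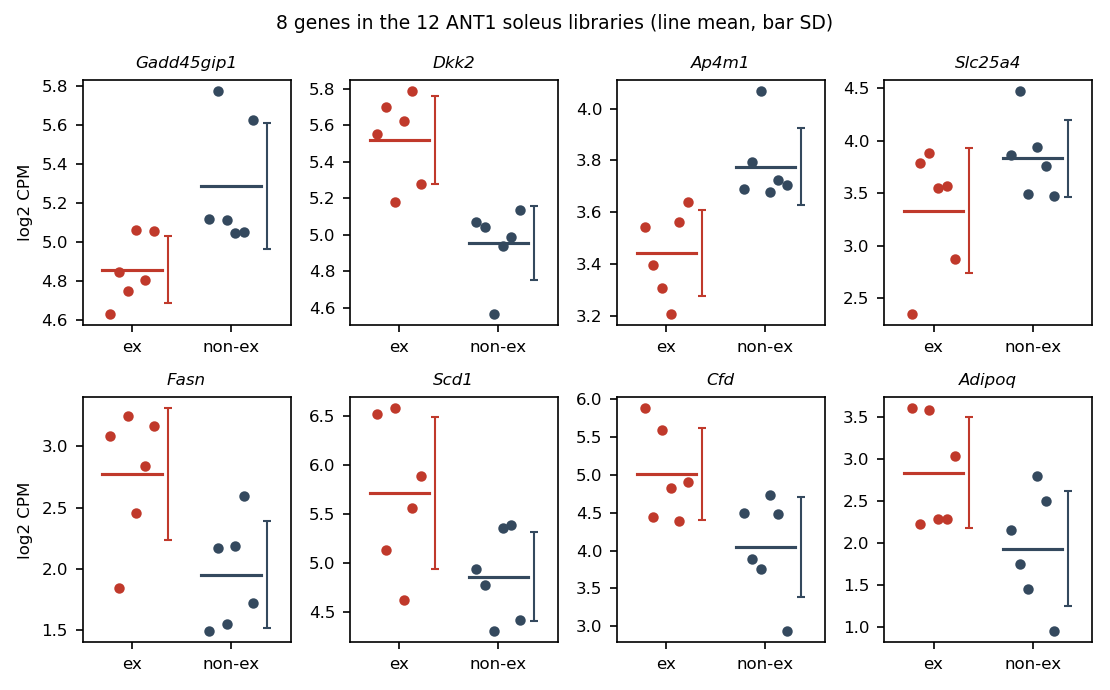
Log2 CPM of 8 named genes in the 12 ANT1 soleus libraries, by arm (ex, exercised; non-ex, non-exercised), with the mean as a line and the SD as a bar. The arms are apart for Dkk2 and Ap4m1, overlap for the rest, and Gadd45gip1 has 2 high non-exercised libraries, at 54.6 and 49.3 CPM.

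Other genes with the smallest p had varied roles. Among those higher in exercised mice were Atrip (0.49 ± 0.14), a partner of the checkpoint kinase ATR, Nsun6 (0.52 ± 0.17), an RNA methyltransferase, Supt16 (0.22 ± 0.069), part of the FACT histone chaperone, and Ift81 (0.48 ± 0.15), a component of intraflagellar transport. Ncdn, Osgin2, Car2, Ifi27l2a and Rab40c completed the 12 and ranged from 0.30 to 0.79. Among those lower were Ascc1 (-0.33 ± 0.097), of the activating signal cointegrator complex, Ripk2 (-0.56 ± 0.17), a kinase of innate immune signalling, Nprl2 (-0.29 ± 0.093), a subunit of the GATOR1 complex that restrains mTORC1, and Irf5 (-0.92 ± 0.34), an interferon regulatory factor. Spaca6, Gtf2ird2, Thap7, Sap30l and Borcs7 ranged from -0.67 to -0.19. None of these genes passed the adjusted test.

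Contractile genes of slow fibres had higher estimates in exercised mice for every member tested, and no member passed. Of 12 members tested, 12 had estimates above 0 (51.2% of all genes did), 0 were called, and 4 had an unadjusted p under 0.05, against 1.36% of all genes in that direction. The median was 0.22 log2 units, beside 0.0032 over all genes. Myh7, the slow myosin heavy chain, lay between 7482 and 10350 CPM in exercised mice (median 8731) and between 4882 and 8791 CPM in non-exercised mice (median 7568). A13 and A43 were highest and A82 lowest, and the arms overlapped. The differences were 0.29 ± 0.14 for Myh7, 0.24 ± 0.10 for Tnnt1, 0.30 ± 0.14 for Tnni1 and 0.28 ± 0.13 for Tnnc1, the last 3 the slow troponins of the thin filament, with unadjusted p of 0.0440, 0.0280, 0.0432 and 0.0350. Without A30 the median of the list was 0.22 and 3 members kept an unadjusted p under 0.05. Leaving out A82 gave 0.18, the lowest median over the alternatives.

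Fast fibre genes had estimates mostly below 0, and library A30 moved several of them. Of 16 members tested, 2 had estimates above 0, Myh4 and Actn3, both with A30 as their highest library, and 1 had an unadjusted p under 0.05 (1.15% of all genes were lower at that level). Myh4, the myosin of type IIb fibres, was 242 CPM in A30 and 16.3 to 22.3 CPM in the other 5 exercised mice, and 12.5 to 33.3 CPM in non-exercised ones (median 20.1). Its difference was 1.40 ± 1.08 with A30 and -0.21 without it. Actn3, the fast Z-disc actinin, was 36.2 CPM in A30 against 5.54 to 7.56 CPM in the other exercised mice, and its difference went from 0.67 to -0.16. Without A30, 0 of 16 members were above 0, the median was -0.20 and 5 had an unadjusted p under 0.05, where 1.16% of all genes were lower at that level. None was called. Non-exercised A88 was kept in this repeat, and it was the highest library for Myh1 (5986 CPM) and for Mybpc2 and Pvalb, described next.

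Mybpc2, the fast form of myosin binding protein C, had the largest difference of the fast list without A30. It ranged from 0.72 to 31.9 CPM in exercised mice (median 1.92) and from 0.998 to 79.2 CPM in non-exercised mice (median 7.61). The high libraries were exercised A30 and non-exercised A88, A4 and A82, and the arms overlapped over most of their range. The difference was -1.48 ± 0.72 in all 12 libraries, -3.06 ± 0.79 without A30 (unadjusted p = 0.000347, edgeR adjusted p = 0.9999), and -0.15 without A88. Parvalbumin (Pvalb), the calcium buffer of fast fibres, was also highest in A88 and A30, and its difference was -0.37 with all, -2.20 without A30 and 0.86 without A88. Among abundant members, the fast light chains Mylpf (-0.33 ± 0.19) and Myl1 (-0.24 ± 0.13) and the tropomyosin Tpm1 (-0.20 ± 0.11) did not pass.

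**Figure D3:**
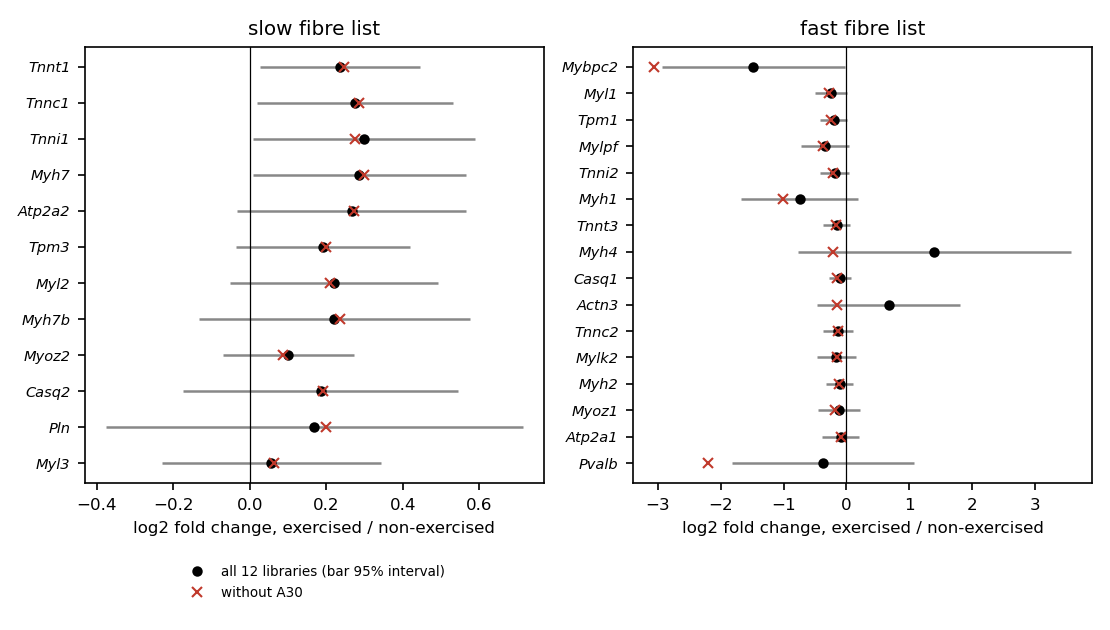
Log2 fold change with its 95% interval (grey bar) for each tested gene of the slow fibre list (left) and the fast fibre list (right), with all 12 libraries (black) and without A30 (red cross). The slow genes all lie above 0, and Myh4 and Actn3 move from above to below 0 without A30.

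The make-up of the adult myosin mRNAs was read from the deposited FPKM values (fragments scaled by transcript length and library size). The relation of FPKM to CPM was not the same in all libraries. In A17, 8280 CPM of Myh7 and 15370 CPM of Myh2 stood beside 1635 and 2070 FPKM. In A82, 4882 and 13860 CPM stood beside 1356 and 1488 FPKM. The shares thus depend on the measure, and no share was taken from CPM. Myh7 made up 49.5% ± 7.09 (SD, n = 6) of the sum of Myh7, Myh2, Myh1 and Myh4 in exercised mice and 42.3% ± 6.03 in non-exercised mice. The range was 41.6% to 57.8% against 34.1% to 51.2%, so the arms overlapped widely. Myh2 made up 44.8% ± 4.97 against 48.2% ± 3.15, Myh1 5.52% ± 4.82 against 9.43% ± 7.21, and Myh4 under 0.75% in every library. None of these 4 differences passed an exact two-sided permutation test over 924 arrangements (p = 0.0844 for Myh7, 0.182 for Myh2, 0.299 for Myh1 and 0.786 for Myh4; adjusted p from 0.333 to 0.786 over 10 tests). These tests were added after the data were seen.

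**Figure D4:**
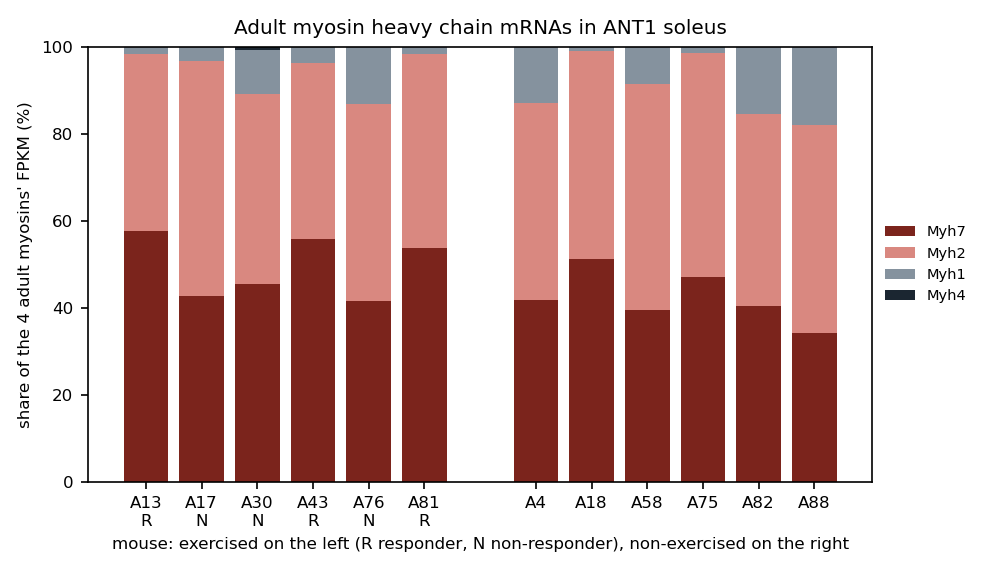
Share of Myh7, Myh2, Myh1 and Myh4 in the summed FPKM of the 4 adult myosins, in percent, a bar per mouse, with exercised mice at left and non-exercised mice at right (R, responder; N, non-responder). Myh7 takes 53.7% to 57.8% in the 3 responders and 41.6% to 45.6% in the 3 non-responders. The CPM of Myh7 did not separate these groups.

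Genes of oxidative phosphorylation differed little between the arms. Of the mRNAs of mitochondrial DNA, 2 of 13 had estimates above 0 and 0 were called, the median was -0.097, and the interval was within 1.5-fold for 12. The lead member was mt-Atp6, a subunit of ATP synthase, with 6504 to 12220 CPM in exercised mice (median 8207) and 7176 to 15680 CPM in non-exercised mice (median 9699). Its difference of -0.28 ± 0.18 did not pass, and A82 was the highest library. For mt-Co1, of complex IV, the difference was -0.098 ± 0.14, and 0.0097 without A82. The 36 complex I subunits had a median of -0.032, the 23 subunits of complexes III and IV with cytochrome c -0.028 and the 15 ATP synthase subunits -0.021. In every gene of these 3 lists the 95% interval lay within 1.5-fold. In these lists 0 genes were called and 0 had an unadjusted p under 0.05.

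Regulators of mitochondrial mass did not pass either. Ppargc1a, the coactivator of mitochondrial biogenesis, varied between 145 and 473 CPM in exercised mice (median 339) and between 182 and 528 CPM in non-exercised mice (median 327). The order of the mice did not follow the arm, and the lowest were A81, A88 and A82. The difference was -0.048 ± 0.40, with a 95% interval of -0.85 to 0.75. Its relative Ppargc1b was 0.32 ± 0.22. Of 23 genes of biogenesis and mtDNA expression, 14 were above 0, and Polg2, the accessory subunit of the mtDNA polymerase, was the only member with an unadjusted p under 0.05 (-0.34 ± 0.16, edgeR). Nnt, the transhydrogenase whose intact gene is a feature of the strain background, was at 213 to 707 CPM in exercised and 259 to 572 CPM in non-exercised mice, with a difference of 0.25 ± 0.24.

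Other ADP/ATP carriers gave no call. Slc25a5, which encodes ANT2, lay between 104 and 140 CPM in exercised mice (median 127) and between 104 and 186 CPM in non-exercised mice (median 119.9), a difference of -0.099 ± 0.14. Slc25a31, the germ cell isoform, had at most 2 counts in a library. Fuel genes were close to 0 as well, with medians of -0.010 for the 26 genes of the tricarboxylic acid cycle and pyruvate oxidation, 0.014 for 26 of fatty acid oxidation and -0.061 for 23 of glycolysis and glucose uptake. The lead members were Idh2 (0.11 ± 0.10), Ucp3 (-0.40 ± 0.33) and Eno3 (-0.20 ± 0.12). Pdk4, the kinase that restrains pyruvate oxidation, was -0.36 ± 0.40, and 0.23 without A58, whose level of 4601 CPM was the highest.

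The fat synthesis enzymes Fasn and Scd1 and most adipocyte mRNAs had higher estimates in exercised mice, with no call. Fasn, the fatty acid synthase, lay between 3.46 and 9.34 CPM in exercised mice (median 7.68) and between 2.67 and 5.92 CPM in non-exercised mice (median 3.75). A17 and A43 were within the range of the non-exercised mice and the other 4 exercised mice were above it. The difference was 0.86 ± 0.23 (unadjusted p = 0.000486, edgeR adjusted p = 0.9999). Scd1, the stearoyl-CoA desaturase, lay between 24.4 and 95.3 CPM against 19.6 and 41.7 CPM, with A30 and A13 highest, and differed by 0.96 ± 0.29 (unadjusted p = 0.00169). Other genes of fat synthesis, chosen after their values were seen, were nearer 0: Acaca 0.23 ± 0.15, Acly 0.17 ± 0.11 and the transcription factor Srebf1 -0.045 ± 0.12. Of 19 genes of cholesterol synthesis 12 were above 0, with a median of 0.029 and Mvd (0.40 ± 0.18) in the lead.

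Of the 9 adipocyte markers tested, 7 were above 0, 6 had an unadjusted p under 0.05 (1.36% of all genes were higher at that level), 0 were called, and the median was 0.97. In bulk tissue, more cells of a type and more RNA per cell cannot be told apart. Adipoq, the adipocyte hormone adiponectin, lay between 4.57 and 12.0 CPM in exercised mice (median 6.42) and between 1.80 and 6.82 CPM in non-exercised mice (median 3.78). The highest were A13 (12.0) and A30 (11.9), and 3 exercised mice lay within the non-exercised range. The difference was 0.93 ± 0.41, and that of Cfd, the adipocyte serine protease adipsin, 0.97 ± 0.38. Lep, the hormone leptin, had arms that did not overlap, at 0.85 to 2.29 CPM against 0 to 0.82 CPM, and a difference of 1.496 ± 0.71 that rests on few counts. Plin4 and Cidea, which code for lipid droplet proteins, were at -0.053 and -0.051, and Ucp1 had 0 counts in all 12 libraries. Without A30, 3 markers kept an unadjusted p under 0.05 and the median was 0.85. The summed level of the list, mostly Plin4, ranged from 464 to 654 CPM in exercised and 439 to 641 CPM in non-exercised mice. The part of fat tissue in the Fasn and Scd1 values was not tested, and A30 and A13 were among the 3 highest exercised libraries for Fasn, Scd1, Adipoq and Cfd.

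**Figure D5:**
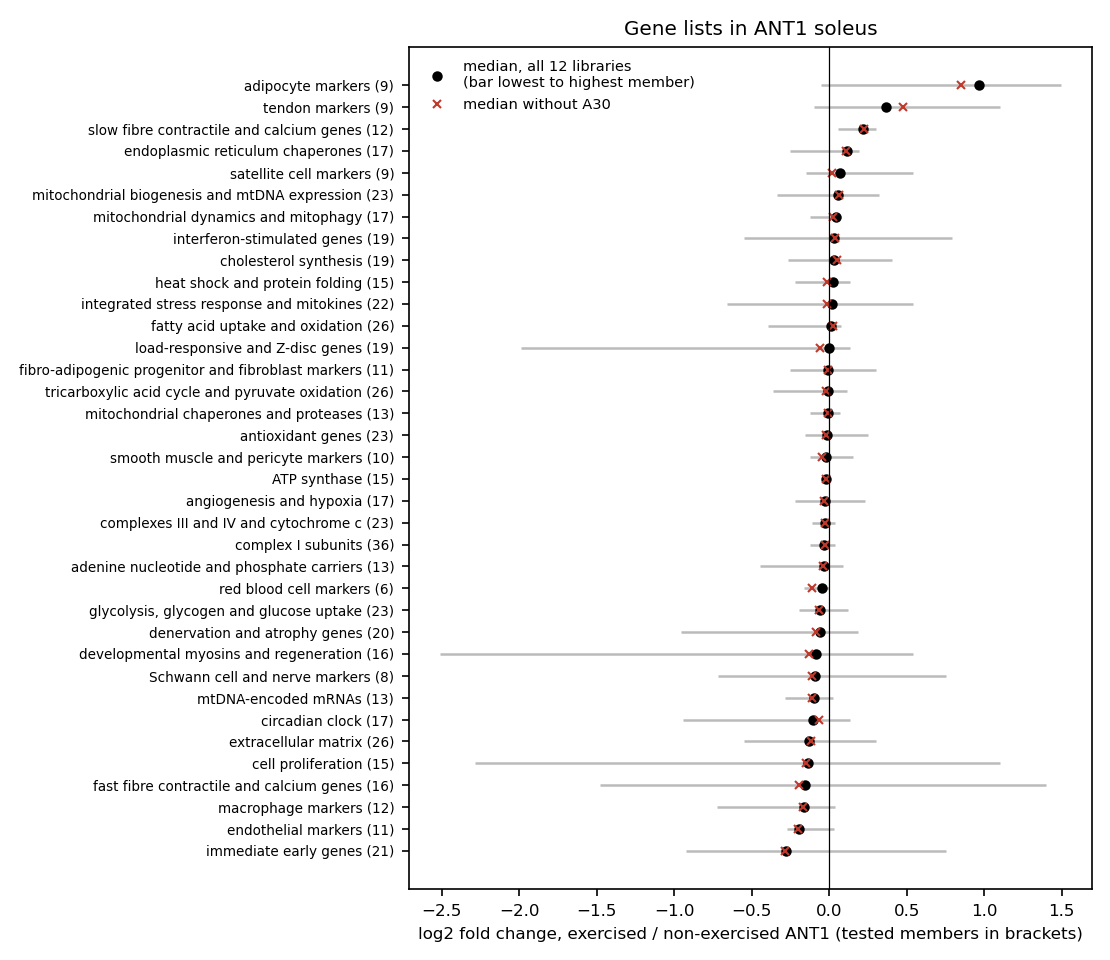
Median log2 fold change of exercised over non-exercised ANT1 soleus for each gene list (dot, all 12 libraries; cross, without A30), with a bar from the lowest to the highest member. The adipocyte list has the highest median, 0.97, and the immediate early genes the lowest, -0.28.

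Stress, early response and clock genes gave no call. Immediate early genes, the first to respond to muscle activity, were above 0 in 4 of 21, with a median of -0.28. Klf4 was the member with an unadjusted p under 0.05 (edgeR, -0.43 ± 0.21), and it lay between 13 and 35 CPM in exercised mice (median 18.1) and between 18.6 and 35.7 CPM in non-exercised mice (median 27.5). A81 was the one exercised mouse at the top of the range, and the arms overlapped. The integrated stress response and mitokine list was split, 12 of 22 above 0, with Slc3a2 at -0.18 ± 0.091, Cebpb at -0.23 ± 0.12 and Phgdh at 0.54 ± 0.32. Gdf15, a hormone raised in mitochondrial disease, was 1.12 to 4.43 CPM against 0.52 to 3.39 CPM, and Fgf21, another, had at most 2 counts in any library. The chaperones of the endoplasmic reticulum were above 0 in 14 of 17, with a median of 0.12 and Canx at 0.13 ± 0.068.

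Among denervation and atrophy genes 6 of 20 were above 0, and the lead was Cdkn1a, a cell cycle inhibitor, at -0.96 ± 0.43 (unadjusted p = 0.0325). It was 143.9 CPM in non-exercised A58 and 14.3 to 36.7 CPM in all other libraries, and its difference was -0.12 without A58. The ubiquitin ligase Fbxo32 was -0.21 ± 0.17. Mstn, the growth inhibitor myostatin, was at most 1.13 CPM in any library. Clock genes were above 0 in 4 of 17, with a median of -0.11. Arntl, the core clock activator, was 19.9 CPM in A58 and 2.37 to 5.27 CPM in the others, and its difference of -0.76 ± 0.43 became 0.12 without that mouse.

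The other lists held no call. Genes of mitochondrial dynamics and mitophagy were above 0 in 14 of 17 (median 0.041), mitochondrial chaperones and proteases in 4 of 13 (median -0.011), antioxidant genes in 9 of 23 (median -0.016), heat shock genes in 10 of 15 (median 0.022), load-responsive and Z-disc genes in 9 of 19 (median -0.0011) and genes of regeneration in 5 of 16 (median -0.085). The lead load-responsive gene was Mustn1 (-0.58 ± 0.35), at 61.2 CPM in non-exercised A75 and at most 28.6 CPM elsewhere. Proliferation genes were above 0 in 4 of 15, with a median of -0.14. Their lead was Cenpf, a kinetochore protein (-2.29 ± 0.88, unadjusted p = 0.0127), a rare mRNA here. Adenine nucleotide and phosphate carriers were above 0 in 2 of 13, with Slc25a4 in the lead, and interferon-stimulated genes in 12 of 19 (median 0.033).

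Cells other than fibres showed no marker past the test. Endothelial markers were above 0 in 1 of 11, with a median of -0.20, and the lead was Cdh5, the endothelial cadherin, at -0.26 ± 0.13 (unadjusted p = 0.0538). Pecam1, another endothelial adhesion gene, was at 52.1 to 89.3 CPM in exercised and 51.2 to 110.5 CPM in non-exercised mice, the highest in A82 and A4. Capillary and hypoxia genes had a median of -0.027. Extracellular matrix genes were above 0 in 4 of 26 (median -0.13, lead Col4a2 at -0.30 ± 0.19), macrophage markers in 1 of 12 (median -0.16, lead Mertk at -0.19 ± 0.18) and tendon markers in 7 of 9 (median 0.37, lead Fmod at 0.81 ± 0.49). The tendon median was 0.20 without A13 and 0.91 without A30, A81 and A82. Fibroblast and progenitor markers (-0.0071), smooth muscle and pericyte markers (-0.020), satellite cell markers (0.067), red blood cell markers (-0.044) and Schwann cell markers (-0.093) had medians near 0. In the Schwann cell list S100b had an unadjusted p under 0.05 (0.75 ± 0.35), with A81 at 2.13 CPM and the rest at most 1.04 CPM. No neutrophil or lymphocyte marker passed the filter, and Cd3e had 1 count in 1 library.

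The next question was whether training differed between ANT1 mice and 3 mtDNA mutants on the same background, ND5 (m.12352C>T, S204F in subunit ND5 of complex I), ND6 (m.13997G>A, P25L in ND6 of complex I) and CO1 (m.6589T>C, V421A in subunit I of complex IV). The ANT1 difference minus the mean of those of ND5, ND6 and CO1 soleus called 0 of 13935 genes with edgeR, with 397 at unadjusted p under 0.05 (2.85%), and DESeq2 and limma voom called 0. Gadd45gip1 again had the smallest p (-0.45 ± 0.11, unadjusted p = 0.000155, adjusted p = 0.9999), where training gave 0.089, -0.065 and -0.044 in ND5, ND6 and CO1. This contrast uses the same ANT1 libraries, so it is not separate evidence. The next were Atrip (0.58 ± 0.16), Tmem47 (0.42 ± 0.11), Fasn (0.88 ± 0.26), Osbpl3 (0.64 ± 0.19) and Nisch (0.27 ± 0.086) above, and Ascc1 (-0.37 ± 0.11), Irf5 (-1.19 ± 0.37), Ripk2 (-0.60 ± 0.20) and Thap7 (-0.42 ± 0.14) below. Fasn was at -0.16, 0.013 and 0.092 in ND5, ND6 and CO1.

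The slow fibre list had a median of 0.31 in this contrast, with 12 of 12 members above 0 and 4 at unadjusted p under 0.05 (1.65% of all genes were higher at that level and 1.2% lower). For training within a strain, the list's median was 0.22 for ANT1 mice, 0.15 for ND5 mice, -0.16 for ND6 mice and -0.15 for CO1 mice. For adipocyte markers the medians were 0.97, 0.55, -0.17 and 0.80 in the same order, and 0 of 9 had an unadjusted p under 0.05 in the contrast. Mitochondrial lists lay mostly below 0 in the contrast. Members above 0 were 0 of 13 mtDNA mRNAs (median -0.27, 2 lower at unadjusted p under 0.05) and 0 of 36 complex I subunits (median -0.13, 1 lower). They were 1 of 23 for complexes III and IV (median -0.12), 0 of 15 for ATP synthase (median -0.11) and 0 of 26 for fatty acid oxidation (median -0.089). For mtDNA mRNAs the medians within a strain were -0.097, 0.35, 0.013 and 0.16 in the same order. The number of genes at an unadjusted p under 0.05 for training was 350 for ANT1 (2.51%), 2086 for ND5 (15%), 688 for ND6 (4.94%) and 268 for CO1 (1.92%), and 0 called by edgeR in each. Whether these counts differ between strains was not tested.

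Responders and non-responders among the exercised ANT1 mice were compared 3 against 3. Of 14451 genes, edgeR called 0 and 670 had an unadjusted p under 0.05 (4.64%), and DESeq2 and limma voom called 0. The smallest p belonged to Arl6ip4 (0.45 ± 0.10, unadjusted p = 5.8e-05, adjusted p = 0.650) and Josd2 (0.37 ± 0.088), a deubiquitinase, both higher in responders. Arl6ip4 was 23.8, 27.5 and 29.9 CPM in A13, A43 and A81 and 19.3, 19.9 and 20.4 CPM in the non-responders. Every responder was above every non-responder. Mum1l1 (1.85 ± 0.46) was higher too, and Agbl1 (-1.05 ± 0.27), Snhg4 (-0.93 ± 0.24), and the chromatin genes Setd2 (-0.49 ± 0.13), Kdm4c (-0.46 ± 0.12) and Phf3 (-0.44 ± 0.12) were lower, and none passed. The remaining Slc25a4 mRNA was at 4.965 to 11.55 CPM in responders and 11.76 to 14.61 CPM in non-responders. Its difference was -0.76 ± 0.21 (edgeR, unadjusted p = 0.000739, adjusted p = 0.7265) and did not pass. Here too the SE and p use a spread shared with strains that express Slc25a4, and may be too small. Separation of all responders from all non-responders was common with 3 mice a group, in 1404 of 14451 genes.

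Interferon-stimulated genes were above 0 in 20 of 21, with a median of 0.60, and 8 had an unadjusted p under 0.05 (2.59% of all genes were higher at that level and 2.05% lower). Without A81 the median was 0.48, and 2 had an unadjusted p under 0.05. Other lists also had estimates mostly above 0 in this contrast. Among them were macrophage markers in 9 of 12 (median 0.41), extracellular matrix genes in 22 of 26 (median 0.36) and fibroblast and progenitor markers in 10 of 11 (median 0.23), with 0 of each at an unadjusted p under 0.05. So were complex I subunits in 34 of 36 (median 0.135, 2 at that level), and complexes III and IV with cytochrome c in 21 of 23 (median 0.13, 0). Slow fibre genes were above 0 in 10 of 12 (median 0.17, 2 at that level). Endothelial markers were above 0 in 9 of 11, and in 2 of 11 without A81. The summed complex I subunits were 9042 CPM in A13, 11320 in A43 and 12880 in A81, against 10080 to 10640 CPM in non-responders. Complexes III and IV with cytochrome c were 10880, 13610 and 15390 CPM in the same order, against 11980 to 12660 CPM. Responder A13 was thus the lowest of the exercised mice in both sums, and A81 the highest. Other lists were mostly below 0, such as fast fibre genes (2 of 16 above 0) and fatty acid genes (7 of 26 above 0). The summed macrophage markers were 65.9 to 67.2 CPM in responders and 47.5 to 62.8 CPM in non-responders, and the part of these cells in the interferon values was not tested. Of interferon-induced GTPases, Gbp2, a member of the list, differed by 1.46 ± 0.41, and Iigp1, named for its small p and not in the list, by 1.89 ± 0.50. Iigp1 was 29.4 CPM in A81 and 3.82 and 8.49 in the other responders, against 2.53 to 5.44 in non-responders. Without A81 the differences were 0.76 for Iigp1 and 0.70 for Gbp2.

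Myh7 made up 53.7% to 57.8% of the adult myosin FPKM in responders and 41.6% to 45.6% in non-responders, a difference of 12.5 percentage points. The groups did not overlap in this FPKM share. However, 3 against 3 can give no p under 0.1. The exact two-sided permutation p was 0.1, the smallest possible (adjusted p = 0.333). The level of Myh7 in CPM did not separate them, at 7482 to 10350 CPM in responders and 8280 to 8984 CPM in non-responders. In CPM, A81 was the lowest of the 6 mice. The level in FPKM did separate them, at 2014 to 2490 in responders and 1635 to 1862 in non-responders. In CPM, A81 had 7482 of Myh7 and 14990 of Myh2, and non-responder A30 had 8478 and 14260. In FPKM, A81 had 2014 and 1673, and A30 had 1862 and 1778. Separation by Myh7 thus depended on the measure, and the cause was not tested. The fitted difference of Myh7, from counts, was 0.12 ± 0.20 (edgeR, unadjusted p = 0.535). The level of Myh1, of type IIx fibres, was 423 to 1155 CPM in responders and 906 to 4390 CPM in non-responders. The difference of -2.02 ± 0.61 (edgeR, unadjusted p = 0.00195, adjusted p = 0.855) did not pass. The SD of log2 CPM of Myh1 was 2.01 in non-exercised ANT1 mice, and 0.24 to 0.72 in the groups of the other strains. The SE and p use a spread shared with those strains and may be too small for ANT1 mice. The Myh1 share was 2.26% ± 1.11 (SD, n = 3) in responders and 8.79% ± 4.995 in non-responders. These shares were compared after the data were seen.

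Heart libraries of ANT1 mice gave the same number of calls. In heart, 0 of 15723 genes were called with edgeR and 353 had an unadjusted p under 0.05 (2.25%), while DESeq2 called 1, the fatty acid elongase gene Elovl3. The remaining Slc25a4 mRNA differed by -0.85 ± 0.29 in heart (edgeR, unadjusted p = 0.00539, adjusted p = 0.9999). It lay between 1.89 and 2.93 CPM in exercised hearts and between 2.24 and 6.12 CPM in non-exercised hearts. Gadd45gip1 differed by 0.46 ± 0.24 in heart (unadjusted p = 0.0662, adjusted p = 0.9999). Exercised hearts A64 (34.7 CPM) and A73 (39.5 CPM) were the highest, and without both the difference was 0.044. The heart estimates for Fasn (0.48 ± 0.69), Scd1 (1.46 ± 0.91), Adipoq (2.14 ± 1.38) and Cfd (1.84 ± 1.36) rested in large part on A17, the highest of the 12 hearts for these 4 genes. Without A17 they were -0.038 for Fasn, 0.35 for Scd1, 0.49 for Adipoq and 0.36 for Cfd. Whether these differ between tissues was not tested. Mice A17, A58 and A76 gave both tissues.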

How the data were processed

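Soleus and heart RNA was sequenced as paired-end oligo(dT) libraries, per the labels' protocols. The authors deposited expected counts and FPKM per gene. STAR 2.5.2b, RSEM 1.2.28 and build mm10 come from the submitters' processing notes. The sources used here do not say whether strand was kept, so overlapping and antisense genes are uncertain. Expected counts were rounded to whole numbers. Columns were matched to samples by mouse code, and 24 columns (12 per tissue) that matched no sample title were not used. Separate mouse codes were taken as separate mice. Genes were filtered with filterByExpr by group (13935 of 53656 kept), scaled by TMM, and compared in edgeR 4.0.16 (R 4.3.3, quasi-likelihood) over all 48 soleus libraries with a mean per strain and treatment. Adjusted p-values follow Benjamini and Hochberg over all genes of a contrast, and a gene was called under 0.05. Intervals are 95%. Levels are CPM scaled by TMM.

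Among 30 pairs of libraries of an arm, the smallest chi-square per gene was 7.92, so none was counted as a repeat. The script was tested on simulated data. The members and the 37 gene lists were chosen with earlier results of these data known. Named genes were 13 fixed genes, the 12 smallest p per direction (average log2 CPM of at least 1, without clone and predicted names), the 4 smallest p of each list and 5 per direction in the other contrasts. The text names only some of the list members. Alternatives were DESeq2 1.42.0, limma 3.58.1 (voom), other scaling, no filter, no mtDNA genes, ANT1 libraries alone and each library left out.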

Additional observations from a re-analysis of the deposited data

Results flagged for a closer look

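In 16 of 206 groups of 6 libraries, 1 library stood far from the others, and chance alone flags about 1 in 20 groups. In exercised mice, A30 was highest in Myh4 (log2 CPM 7.92; the others 4.04 to 4.49), Actn3 (5.18) and the Myh4 share of adult myosin FPKM (0.74%), and lowest in Zbed3 (1.98). A76 was highest in Irf5 (1.66), A81 in S100b (1.18) and A17 in the Myh2 share (54.0%). In non-exercised mice, A82 was lowest in Myh7 (12.2; the others 12.8 to 13.1) and Ift81 (3.77), and highest in mt-Co1 (18.3) and in the mtDNA share of counts (47.6%). A58 was lowest in Dkk2 (4.57) and Gbp2 (1.504) and highest in Ap4m1 (4.07), Cdkn1a (7.17) and Arntl (4.33).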

How the results depend on the processing

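No paired analysis was possible because no mouse gave libraries in both arms and the labels number no replicates. The count of called genes stayed at 0 under the other scaling, limma voom, ANT1 libraries alone, without mtDNA genes and without each single library for training, and wherever these were run for training without A30 and for the contrast with the other strains. It was 1 under DESeq2 for training (Gadd45gip1), 1 without the low-count filter for training, for training without A30 and for responders (a clone name in each), 1 without A81 and A82 for training, and 1 under DESeq2 in heart (Elovl3). Leaving out each library gave 0 to 1 called for responders (1, Zc3h11a, without A17) and 0 to 0 for training. Genes at unadjusted p under 0.05 for training ran from 201 with ANT1 libraries alone to 904 without the filter, and were 753 without A81 and 655 without A18 and A88.

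Leaving out each mouse in turn, signs reversed as follows. Without A58: Slc25a5 (0.020; range -0.16 to 0.020), Ppargc1a (0.061), Pdk4 (0.23; -0.67 to 0.23) and Arntl (0.12; -0.90 to 0.12). Without A30: Myh4 (-0.21; -0.21 to 1.59), Actn3 (-0.16; -0.16 to 0.82) and the Myh4 share (-0.00926 percentage points; to 0.129). Ppargc1a (-0.18 to 0.12) also reversed without A4 (0.12), A43 (0.031) or A81 (0.10), Gdf15 (-0.14 to 0.32) without A17 (-0.14) or A82 (-0.043), mt-Co1 (-0.20 to 0.0097) without A82, Pvalb (-2.20 to 0.86) without A88 and Srebf1 (-0.13 to 0.000262) without A88. Fasn in heart (-0.038 to 0.76) reversed without A17. The tendon marker median ran from 0.20 to 0.53 and was 0.91 without A30, A81 and A82. The mtDNA share (-2.58 to 0.58 percentage points) reversed without A82. Without A30, A81 and A82, Myh4 (-0.185), Actn3 (-0.11), Ppargc1a (0.00844), Gdf15 (-0.033) and Srebf1 (0.0043) reversed, and without A18 and A88 Pvalb did (0.74). The exact permutation p of the Myh7 share was 0.0476 without A76 and 0.0498 without A18, and that of the Myh2 share 0.0195 without A17, all unadjusted. The cause of these changes was not tested. Of genes under a log2 CPM of 1, 48.3% had an interval within 2-fold, against 98.9% of those at 5 or more. The FPKM shares, the values per gene in heart, the list medians for responders and the fits without 2 or 3 libraries together were added after the data were seen.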

Other observations

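The mice with the highest Gadd45gip1 also had the highest Il15, which encodes an interleukin made by muscle and was chosen after its values were seen. In soleus, Il15 was 9.37 CPM in A18 and 10.1 CPM in A88, both non-exercised, and 5.81 to 8.90 CPM in the other 10 libraries. In heart, exercised A64 had 34.7 CPM of Gadd45gip1 and 11.02 CPM of Il15, and exercised A73 39.5 and 10.5 CPM. The other 10 ANT1 hearts had 11.6 to 22.3 CPM of Gadd45gip1 and 1.02 to 2.49 CPM of Il15. By the GENCODE annotation of mm10 both genes lie on chromosome 8, as does Slc25a4, 36.1 Mb (Il15) and 38.6 Mb (Gadd45gip1) from its start. The relation was not tested, nor was the genotype of these mice around Slc25a4.

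In non-exercised A58 5 genes of the fuel, atrophy and clock lists, chosen after their values were seen, were at the top of the 12 soleus libraries: Cdkn1a 143.9 CPM, Pdk4 4601 CPM, Ucp3 270.3 CPM, Fbxo32 425 CPM and Arntl 19.9 CPM. The next highest libraries had 36.7, 2593, 161, 343 and 5.27 CPM.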
